A study of Mus musculus with 8 samples.

Results

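Muscle fibers from mice of 24 to 25 months (Aged) were compared with muscle fibers from pups of postnatal day 3 (P3), the widest span of age in a study of wild-type mice at 4 ages. The comparison rests on the 2 Aged and the 2 P3 arrays, which are 4 of the 8 arrays in all. They were chosen by their age labels alone and fitted without any array of another age. The other 4 arrays, 2 from pups of postnatal day 7 (P7) and 2 from mice of 3 to 4 months (Adult), are used below only as arrays that took no part in the comparison. All samples were fibers of the extensor digitorum longus (EDL), which moves the toes and consists mainly of fast fibers. The EDL was digested with Collagenase II for 90 minutes and the fibers were washed, per the labels' protocols. No treatment, transgene or Cre driver is named in the labels. The samples of an age are labelled biological replicates. The source of the P3 samples is given as pups and that of the Aged samples as a mouse, so the P3 samples may be pools. The p-values set each difference between the groups against the spread within them, moderated over all genes. With 2 arrays a group they say little about variation among other mice or litters.

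At birth a mouse fiber is still being built. It carries embryonic and neonatal myosin heavy chains, which give way to adult chains during the first weeks of life, and a fetal form of the acetylcholine receptor, whose γ subunit is exchanged for the ε subunit as the nerve contact matures. Myoblasts still divide and fuse with it, and a group of imprinted genes that promote fetal growth is active. An old fast fiber has long completed these steps, and ageing muscle is known for loss of mass, partial loss of innervation and stress responses. The span from P3 to Aged covers both maturation and ageing, which Aged against P3 alone cannot tell apart.

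Of 11465 genes tested, 2420 passed the test, with 1209 higher in Aged (10.5% of all genes tested) and 1211 lower (10.6%). A gene is said here to have risen, fallen or changed where limma's Benjamini-Hochberg adjusted p was under 0.05 over all genes tested. All levels are log2 intensities, and all differences are Aged minus P3 on the log2 scale ± SE, with n = 2 per group. The log2 difference was at least 1 in size for 775 of the genes that rose and 873 of those that fell. Falls reached further than rises: 23 genes fell by at least 4 and 7 rose by at least 4, and 13 fell by at least 5 while 1, Aldh1a1, rose by as much. When the arrays were set to equal medians the split was 1547 higher and 1019 lower, and the median over all genes moved from 0.01 to 0.13. In all 2420 genes the Aged arrays lay entirely above or entirely below the P3 arrays. Over all genes, called or not, both Aged arrays lay above both P3 arrays for 33.4% and below them for 30.2%, so a lack of overlap alone says little with 2 arrays a group. An exact permutation test of 2 against 2 arrays could not have reached significance for any gene, since its smallest two-sided p is 0.333. The calls therefore rest on limma, which moderates each gene's variance with that of all genes.

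The 2 P3 arrays correlated at r = 0.976 across probe sets and the 2 Aged arrays at 0.989, against 0.952 to 0.959 between the groups. The spread within P3 was larger, with a median SD of 0.21 against 0.10 in Aged, and 69.6% of genes varied more between the P3 arrays. Array medians lay between 6.02 and 6.17. For 680 genes only the arrays of 1 group lay above the array's median, and 451 of these were called. The table gives no background level, so how close the lower group of such a gene lay to background is not known. A fit of all 8 arrays, whose error also takes in the spread of P7 and Adult, called 1065 genes.

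Fiber markers fitted the labels. Of 8 markers of mature fast fibers 5 rose and none fell, while the 5 markers of immature fibers (Myh8, Myh3, Mymk, Ncam1, Chrng) all fell. Without Aged replicate 1 and without Aged replicate 2 the mature markers called numbered 3. Skeletal actin, Acta1, lay at 14.14 and 14.22 in P3 and at 14.11 and 14.14 in Aged, and muscle creatine kinase, Ckm, at 13.83 and 13.86 against 13.95 and 14.00, neither of which passed the test. The groups did not match in Y-linked RNA. The Y-linked Eif2s3y lay at 7.70 and 7.81 in P3 and at 3.56 and 3.98 in Aged, and the call of Eif2s3y was lost in the fit of all 8 arrays (adjusted p = 0.121). Xist, made by females, lay at 11.13 and 10.97 in P3 and at 10.77 and 11.17 in Aged. Y-linked RNA and Xist were thus both present in the P3 arrays, and Y-linked RNA was low in both Aged arrays, so sex and age cannot be told apart for a gene that differs between the sexes.

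The myosin heavy chains are the motor proteins that set a fiber's type, and the neonatal and embryonic chains fell. Of 12 heavy chain genes tested, 2 rose and 3 fell. The neonatal chain Myh8 lay at 13.56 and 13.50 in P3 and at 7.18 and 6.91 in Aged, a difference of -6.48 ± 0.20 or 89.3-fold (limma, adjusted p = 0.000437). The embryonic chain Myh3 lay at 10.48 and 10.87 in P3 and at 5.35 and 6.16 in Aged, a difference of -4.92 ± 0.32. Both Aged arrays were far below both P3 arrays for these 2 genes. Myh4, the chain of the fastest fibers (type IIB), lay at 11.43 and 11.68 in P3 and at 13.43 and 13.49 in Aged, 3.75-fold higher (1.91 ± 0.15, limma adjusted p = 0.00213). Myh1, the IIX chain, lay at 11.64 and 11.87 against 12.54 and 13.37 (1.20 ± 0.29). The call of Myh1 was lost without Aged replicate 2 (adjusted p = 0.171), without P3 replicate 1 (0.0768) and in the fit of all 8 arrays (0.104). Myh2, the IIA chain, did not pass and its groups overlapped, at 10.72 and 11.13 in P3 and at 10.97 and 12.05 in Aged. The slow chain Myh7 fell by 2.00 ± 0.35, from 11.66 and 11.73 to 9.18 and 10.22, with the 2 Aged arrays further apart than the 2 P3 arrays. The other 6 heavy chains (Myh6, Myh7b, Myh9, Myh10, Myh11, Myh13) had differences between -0.99 and 0.70 and did not pass. Without P3 replicate 1 the falls numbered 6, as Myh6 (adjusted p = 0.0233), Myh7b (0.0161) and Myh13 (0.0214) were then called too, and Myh6 was also called without Aged replicate 2 (0.0232).

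**Figure D1:**
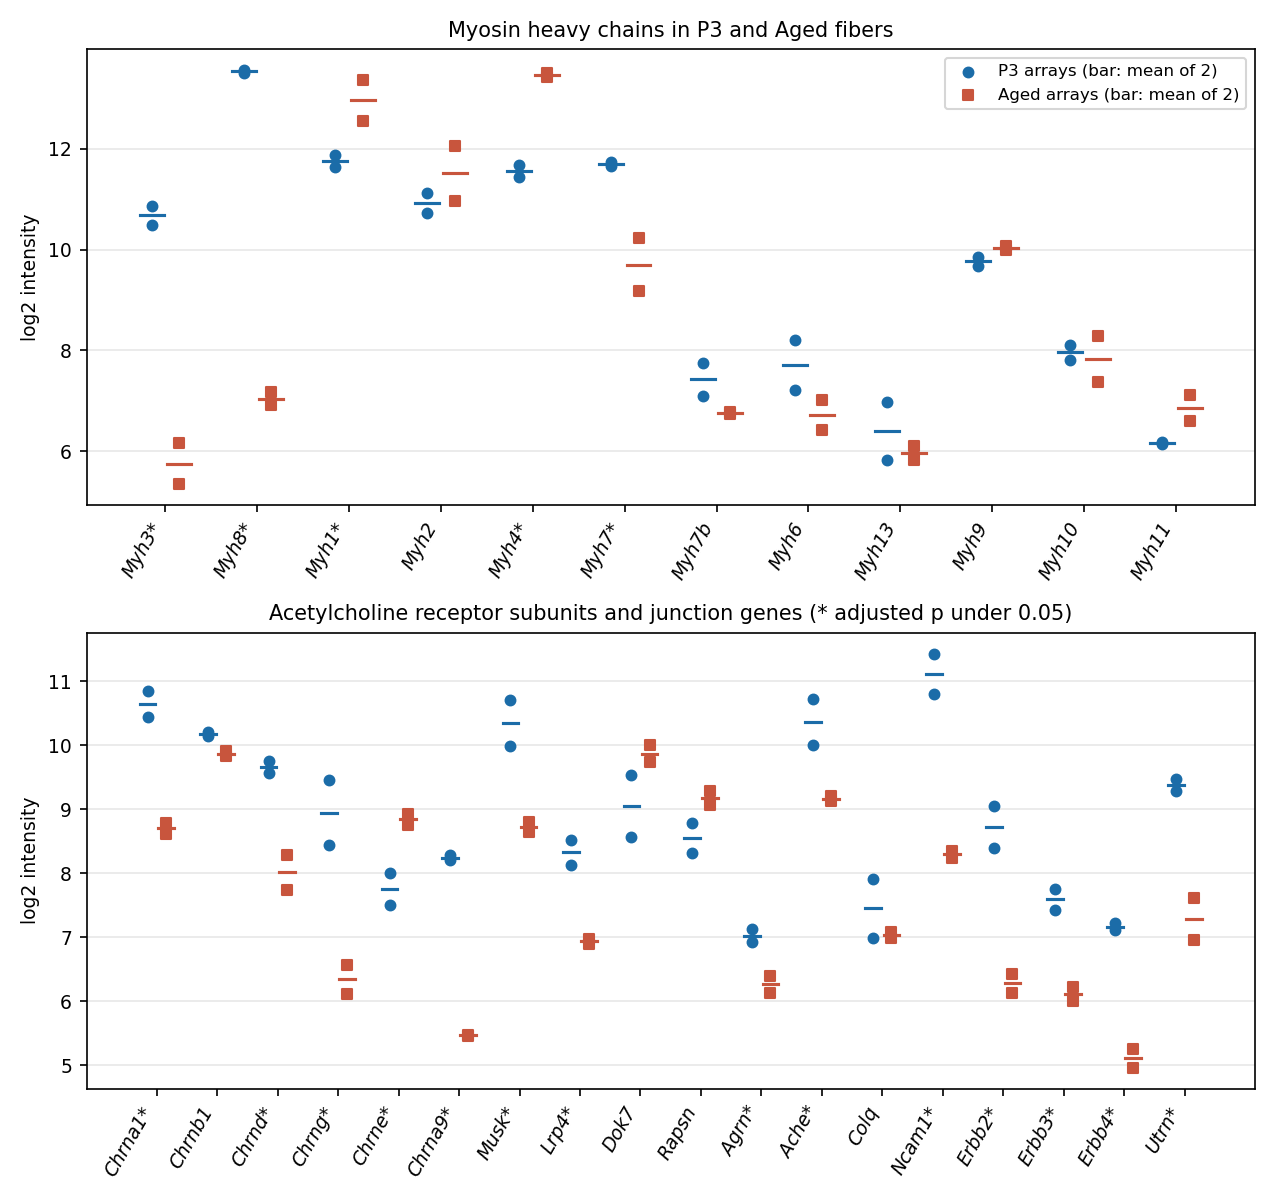
Log2 intensity of 12 myosin heavy chain genes (upper panel) and of acetylcholine receptor subunits and junction genes (lower panel) in the 2 P3 arrays (circles) and the 2 Aged arrays (squares), with a bar at each group's mean. Myh8 and Myh3 lay several log2 units lower in Aged and Myh4 about 2 units higher, and Chrng and Chrne differed in opposite directions. An asterisk marks an adjusted p under 0.05.

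The rest of the sarcomere, the contractile unit, followed by isoform class. Of 12 embryonic and neonatal sarcomere genes 9 fell and 2 rose, with a median difference of -2.15 against 0.01 over all genes. Cardiac α-actin, Actc1, which is made in fetal skeletal muscle, lay at 13.36 and 13.44 in P3 and at 10.93 and 10.83 in Aged. Cardiac troponin T, Tnnt2, differed by -2.57 ± 0.20, and the light chains Myl4 and Myl6b by -2.26 ± 0.19 and -2.39 ± 0.33. The 2 members that rose were Ankrd1, which binds titin and responds to load, and Xirp1, an actin-binding protein of cell junctions. Ankrd1 lay at 9.64 and 9.31 in P3 and at 13.19 and 13.40 in Aged, 14.1-fold higher. Xirp1 differed by 0.57 ± 0.12, and its call was lost without Aged replicate 1 (adjusted p = 0.235) or 2 (0.186) and with all 8 arrays (0.474).

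Slow-fiber genes were lower in the Aged fibers. Of 12 slow sarcomere genes 9 fell and none rose, with a median of -1.93. Casq2, the slow and cardiac calsequestrin, fell the most, from 11.98 and 11.28 to 7.28 and 8.04 (-3.97 ± 0.36). Myoz2, a Z-disc protein of slow fibers, differed by -2.50 ± 0.38, slow troponin I (Tnni1) by -2.04 ± 0.31, slow troponin T (Tnnt1) by -2.17 ± 0.35 and the slow light chain Myl2 by -1.92 ± 0.35. Aged replicate 2 was the higher of the 2 Aged arrays for each of these 5 genes, and neither Aged array reached a P3 array. Of 14 fast sarcomere genes 6 rose and none fell, with a median of 0.41. Mybpc2, fast myosin-binding protein C, lay at 11.02 and 10.67 in P3 and at 12.87 and 12.80 in Aged (1.99 ± 0.18). The kinase Mylk2, which phosphorylates the fast light chain, lay at 11.18 and 11.18 in P3 and at 12.69 and 12.68 in Aged. The Z-disc proteins Myoz3 and Actn3 rose by 1.39 ± 0.23 and 0.79 ± 0.13. The fast light chains Myl1 and Mylpf and fast troponin I (Tnni2) did not pass, with differences of -0.07, -0.08 and 0.20. Without Aged replicate 2 only 3 fast members were called, and Myoz3 (adjusted p = 0.0683) and Actn3 (0.061) were not among them. Actn3 was also lost without Aged replicate 1 (0.114).

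Among 24 scaffold and chaperone genes of the sarcomere 4 rose and none fell, with a median of 0.27. Titin-cap, Tcap, lay at 9.11 and 10.08 in P3 and at 11.21 and 11.58 in Aged (1.80 ± 0.35). The myosin chaperone Unc45b rose by 1.14 ± 0.21, Klhl40, which stabilises thin filament proteins, by 1.06 ± 0.16 and the pointed-end cap Tmod4 by 0.73 ± 0.18. This count was sensitive to single arrays, at 1 without Aged replicate 1, 2 without Aged replicate 2, 11 without P3 replicate 1 and 9 without P3 replicate 2. Of the 4 genes Tcap alone stayed called in each of these cases, while Klhl40 stayed called in the 3 that kept Aged replicate 1. All 8 arrays together called 2, without Klhl40 (adjusted p = 0.397) and Tmod4 (0.0501).

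Acetylcholine receptor subunits, which form the channel that receives the nerve signal, mostly fell, the fetal γ subunit among them. Of 6 subunit genes tested 4 fell and 1 rose. The fetal subunit gene Chrng lay at 8.44 and 9.45 in P3 and at 6.56 and 6.12 in Aged, 6.08-fold lower (-2.60 ± 0.37, limma adjusted p = 0.00821). The adult subunit gene Chrne lay at 7.50 and 8.01 in P3 and at 8.76 and 8.92 in Aged, 2.12-fold higher (1.09 ± 0.24, limma adjusted p = 0.029). The groups did not overlap for either gene, but the call of Chrne was lost without Aged replicate 1 (adjusted p = 0.0742) or 2 (0.125). The ligand-binding subunit gene Chrna1 lay at 10.85 and 10.44 in P3 and at 8.79 and 8.62 in Aged, and Chrnd, the δ subunit, at 9.76 and 9.56 against 8.29 and 7.74. Both subunits belong to the fetal and to the adult form. In the fit of all 8 arrays the calls of Chrnd (adjusted p = 0.12) and Chrne (0.0729) were lost, and the Adult minus P7 difference of Chrne was -0.05. Chrna9, a subunit better known from the inner ear, lay at 8.29 and 8.20 against 5.46 and 5.48 (-2.78 ± 0.16). Chrnb1, the β subunit that both forms share, did not pass (-0.31 ± 0.18). Chrna10 did not pass the filter on low values.

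Promoter sequences are printed for Chrna1 and Chrng, which fell, and Chrne, which rose, because the 3 genes code for parts of the same channel. The letters are the 180 bases before each gene's start in RefSeq (GRCm38.p6), read 5′ to 3′ on the gene's own strand. Capitals mark the E-box pattern CANNTG, to which myogenic factors are known to bind, and the pattern CCGGAA, the core of the N-box known from genes of the synapse. The E-box pattern reads the same on both strands, and CCGGAA was searched on both.
Chrna1 (chr2:73580339-73580518, minus strand): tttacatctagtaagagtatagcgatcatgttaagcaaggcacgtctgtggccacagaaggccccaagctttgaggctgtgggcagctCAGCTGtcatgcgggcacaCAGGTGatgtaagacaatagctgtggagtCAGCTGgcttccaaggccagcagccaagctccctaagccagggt
Chrng (chr1:87205631-87205810, plus strand): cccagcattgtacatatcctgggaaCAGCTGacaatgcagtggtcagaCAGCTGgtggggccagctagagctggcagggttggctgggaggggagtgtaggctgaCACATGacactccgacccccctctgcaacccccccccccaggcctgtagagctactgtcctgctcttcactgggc
Chrne (chr11:70619195-70619374, minus strand): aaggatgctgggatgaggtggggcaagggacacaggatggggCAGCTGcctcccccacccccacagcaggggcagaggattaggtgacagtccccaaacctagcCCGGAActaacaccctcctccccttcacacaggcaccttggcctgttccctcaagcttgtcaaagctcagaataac
Within these windows Chrna1 holds 3 E-box patterns, which begin 92, 73 and 44 bases before the start, and Chrng holds 3, which begin 155, 132 and 75 bases before it. Chrne holds 1 E-box pattern 138 bases before the start and 1 CCGGAA 76 bases before it. Over 32817 promoters of 300 bases, 72.3% held at least 1 E-box pattern, 17.6% held at least 3 and 14.9% held CCGGAA at least once. The same window of Chrnb1, which did not pass the test, also holds 3 E-box patterns, 119, 96 and 29 bases before its start, so the number of patterns does not separate the subunit genes by their change. These matches describe letters only, and the arrays did not measure binding.

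The other genes of the nerve contact were lower or did not pass. Of 18 neuromuscular junction genes 10 fell and none rose, with a median of -0.96. The adhesion molecule Ncam1 lay at 11.43 and 10.80 in P3 and at 8.35 and 8.24 in Aged (-2.82 ± 0.26). The neuregulin receptors Erbb4, Erbb2 and Erbb3 differed by -2.06 ± 0.17, -2.43 ± 0.27 and -1.48 ± 0.20. Of the pathway through which the nerve's agrin clusters receptors, the co-receptor Lrp4 fell by 1.39 ± 0.21 and the kinase Musk fell by 1.62 ± 0.29, from 10.70 and 9.98 to 8.80 and 8.64. Downstream of Musk, the adaptor Dok7 and the scaffold Rapsn did not pass (0.82 ± 0.35 and 0.62 ± 0.24), although their Aged arrays lay above their P3 arrays. The esterase Ache fell by 1.20 ± 0.28, and Colq, which anchors it, did not pass (-0.42 ± 0.32). The fall of Ache was not called without Aged replicate 1 (adjusted p = 0.0932) or 2 (0.111), and 7 members were called without either Aged array. In the fit of all 8 arrays 5 were called, and Lrp4 (adjusted p = 0.0649), Erbb3 (0.0926) and Ache (0.142) were not. Without P3 replicate 1 there was 1 rise, Dok7 (adjusted p = 0.00912), and without P3 replicate 2 there were 2, Rapsn (0.0218) among them. In a list of 16 genes known to rise when muscle loses its nerve, 3 rose and 9 fell. The 3 that rose were Trim63, Fbxo32 and Ankrd1, and among those that fell were Chrng, Chrna1, Chrnd, Ncam1, Myh3 and Myh8. Without P3 replicate 2 the rises in this list numbered 5, and with all 8 arrays 2 rises and 6 falls were called.

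Proteins that couple excitation to contraction included opposite changes of related isoforms. Of 22 genes tested 6 rose and 3 fell, with a median of 0.01. Ryr3, the calcium release channel of immature fibers, lay at 8.51 and 8.37 in P3 and at 5.10 and 5.17 in Aged (-3.30 ± 0.16), while Ryr1, the main channel of muscle, lay at 11.64 and 11.70 against 12.43 and 12.56 (0.83 ± 0.15). Parvalbumin, Pvalb, the calcium buffer of fast fibers, lay at 12.34 and 12.30 in P3 and at 13.86 and 13.78 in Aged. Sarcolipin, Sln, which inhibits the calcium pump, fell by 2.10 ± 0.35. Caveolin-3, Cav3, which shapes the fiber membrane, lay at 10.55 and 10.78 in P3 and lower in both Aged arrays, with a mean of 9.17. Jsrp1, Stac3, Atp2a1 and Cacna1s rose by 0.45 to 1.11. Pvalb was the only member called higher without Aged replicate 1 and without Aged replicate 2. The adjusted p of the other 5 that rose was then between 0.104 and 0.435, and that of Cav3 without Aged replicate 2 was 0.0907. With all 8 arrays 3 rises were called, and Cav3 (adjusted p = 0.259), Jsrp1 (0.194), Stac3 (0.127) and Cacna1s (0.0893) were not. The falls numbered 5 without P3 replicate 1.

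Channels of the fiber membrane rose in 5 of 14 cases and fell in 3. The chloride channel Clcn1, which stabilises the resting membrane, lay at 8.43 and 9.14 in P3 and at 10.23 and 10.24 in Aged (1.45 ± 0.28). The potassium channel genes Kcnj11, Kcna7, Kcnj2 and Kcnc1 differed by 1.45 ± 0.25, 1.21 ± 0.18, 1.19 ± 0.25 and 0.99 ± 0.25. The T-type calcium channel Cacna1h, found in fetal muscle, fell by 1.52 ± 0.24, and the mechanosensitive channel Piezo1 fell by 1.33 ± 0.30. Atp1b4, a relative of sodium pump β subunits that lies in the nuclear envelope of perinatal muscle, lay at 13.28 and 12.66 in P3 and at 7.81 and 7.27 in Aged. The call of Kcnc1 was lost without Aged replicate 1 (adjusted p = 0.23) or 2 (0.122), and that of Piezo1 without Aged replicate 1 (0.21) or P3 replicate 1 (0.0531). Kcna7 was the only rise called with all 8 arrays, and Clcn1 (adjusted p = 0.0614), Kcnj11 (0.0674), Kcnj2 (0.175) and Kcnc1 (0.0993) were not.

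Imprinted genes, of which only the copy from 1 parent is active, were the gene list with the largest share of members called lower. Of 18 imprinted growth genes 15 fell and none rose, with a median of -2.76. All 18 with a probe set of their own passed the filter, and for 4 of them only arrays of 1 group lay above the array median. Igf2, the fetal growth factor, lay at 13.46 and 13.59 in P3 and at 7.87 and 8.31 in Aged, 43.2-fold lower. Ndn, or necdin, lay at 11.20 and 11.24 in P3 and at 4.56 and 5.26 in Aged, and Zdbf2 at 10.82 and 11.17 against 6.97 and 6.84. The transcription factor Plagl1 differed by -3.29 ± 0.22, Mest by -3.98 ± 0.37, the cell cycle inhibitor Cdkn1c by -3.34 ± 0.23 and Grb10, an inhibitor of insulin and IGF signalling, by -2.23 ± 0.24. Peg3 fell by 1.47 ± 0.20. In the arrays of the other ages, which were normalised together with these, the median of the list was -2.60 for Adult minus P7, against -0.08 over all genes. For 14 of the 15 genes that fell both Adult arrays lay below both P7 arrays, where 26.4% of all genes tested did. H19 had no probe set of its own.

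Several of these genes lie in 1 cluster on chromosome 12, between Dlk1 and Dio3, which produces Dlk1, a membrane protein related to Notch ligands, and Rtl1 from the paternal copy and long non-coding RNAs and many microRNAs from the maternal copy. The cluster was singled out after its values were seen. Dlk1 lay at 12.92 and 13.09 in P3 and at 6.74 and 6.89 in Aged (-6.19 ± 0.19, 73.2-fold). Meg3, the non-coding RNA at the head of the maternal transcripts, lay at 13.27 and 13.51 against 8.63 and 9.07 (-4.54 ± 0.22), and Rian, further along, at 8.36 and 8.29 against 4.29 and 3.78. The array holds 48 genes between Dlk1 and Dio3, of which 24 passed the filter on low values. For 11 of these 24 only the P3 arrays, where they are high, lay above the array median. Counts over the 24 are therefore descriptions that the filter favoured, and the counts that follow are over all 48. When limma was fitted to all 19937 genes with no filter, 33 of the 48 were called lower, where 6.36% of all genes were, and none higher, where 5.88% were. The median over the 48 was -1.38, with a range from -6.19 to 0.16, against 0.04 over all genes. In 46 of the 48 both Aged arrays lay below both P3 arrays, which held for 24.6% of all genes in that fit. The 10 tested genes before the cluster had a median of 0.11 with 1 called higher and none lower, and the 10 after it had a median of 0.17 with 1 higher and none lower. In the arrays of the other ages the Adult minus P7 difference was -5.98 for Dlk1, -3.74 for Meg3, -3.33 for Rian and -1.27 for Rtl1. That of the microRNA gene Mir666 was positive (0.28). Both the paternally expressed genes Dlk1 (-6.19) and Rtl1 (-1.77) and the maternally expressed RNAs Meg3 and Rian were among those that fell.

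**Figure D2:**
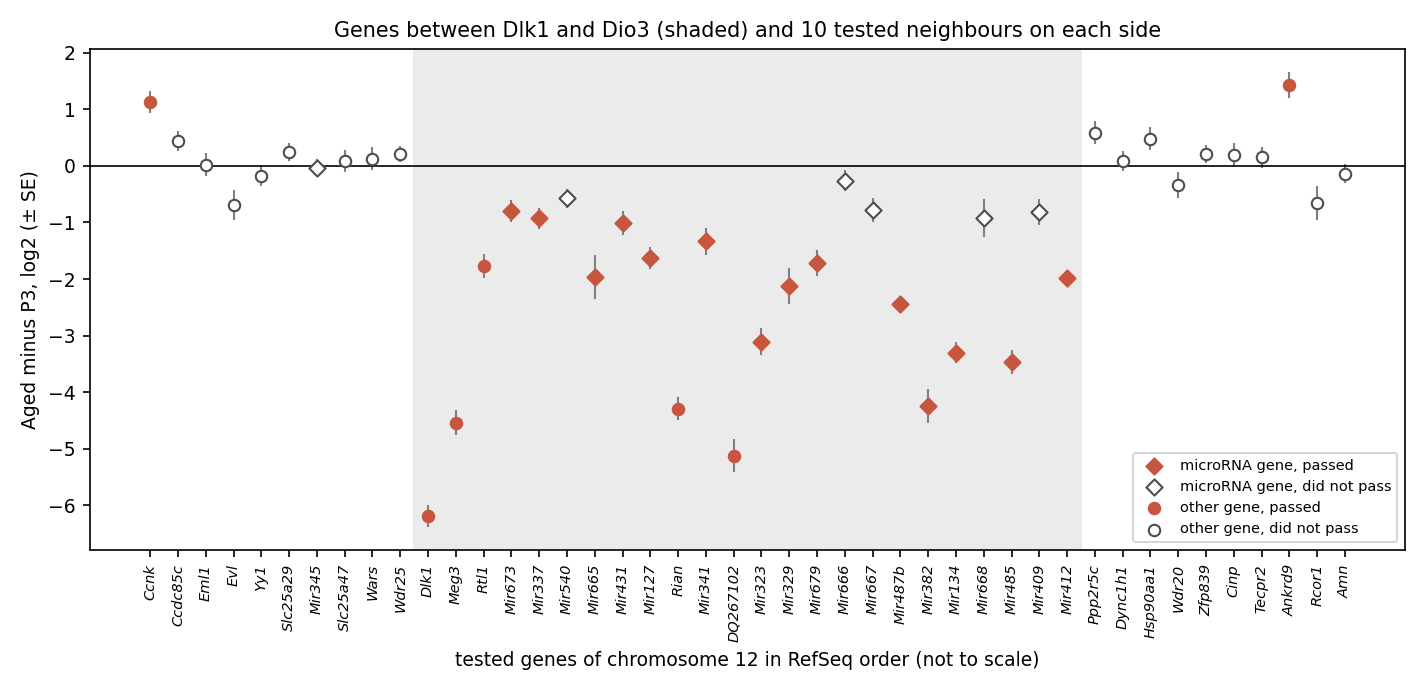
Aged minus P3 log2 difference (± SE from the limma fit) of each tested gene between Dlk1 and Dio3 (shaded) and of the 10 tested genes on each side, in RefSeq order on chromosome 12. Diamonds are microRNA genes, and filled symbols passed at an adjusted p under 0.05. The 24 shaded points all lie below 0, while the neighbours lie between -0.69 and 1.43. Of the 24, 11 passed the filter through the P3 arrays alone, which favoured values below 0 among them.

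The array holds 40 microRNA genes of the cluster, and in the fit with no filter 26 of them were called lower and none higher, with a median of -1.32. Of 257 microRNA genes elsewhere in the genome 12 were called lower and 1 higher in that fit, with a median of -0.01. The filter on low values kept 19 of the 40, 9 of them through the P3 arrays alone. Of the 19, 14 fell, a count that the filter favoured. These probe sets measure transcripts of the microRNA gene in a total RNA preparation and do not separate the precursor from the mature form. A reader may ask whether genes that fell together share targets. The mature sequences are therefore given for the 7 genes with the largest falls among the 19 that passed the filter. They are as listed by RefSeq (GRCm38.p6), with the seed (bases 2 to 8), the part that pairs with target RNAs, in capitals.
miR-382-3p (chr12:109733819-109733840, plus strand): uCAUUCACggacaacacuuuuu
miR-382-5p (chr12:109733781-109733802, plus strand): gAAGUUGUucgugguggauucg
miR-485-3p (chr12:109734946-109734967, plus strand): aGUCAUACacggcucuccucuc
miR-134-3p (chr12:109734184-109734203, plus strand): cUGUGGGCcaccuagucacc
miR-134-5p (chr12:109734145-109734166, plus strand): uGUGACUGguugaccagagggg
miR-323-3p (chr12:109712558-109712578, plus strand): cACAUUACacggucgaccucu
miR-323-5p (chr12:109712523-109712544, plus strand): aGGUGGUCcguggcgcguucgc
miR-487b-5p (chr12:109727347-109727367, plus strand): uGGUUAUCccuguccucuucg
miR-329-3p (chr12:109713541-109713562, plus strand): aACACACCcagcuaaccuuuuu
miR-329-5p (chr12:109713503-109713524, plus strand): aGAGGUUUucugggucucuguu
miR-412-3p (chr12:109743340-109743359, plus strand): uUCACCUGguccacuagccg
miR-412-5p (chr12:109743303-109743325, plus strand): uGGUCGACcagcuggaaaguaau
RefSeq holds 36 mature sequences of the 19 genes that passed the filter, with 36 distinct seeds, so no 2 of these 36 share a seed. Seeds of the cluster's other microRNA genes were not compared. Mir382 lay at 8.62 and 7.77 in P3 and at 3.76 and 4.13 in Aged (-4.25 ± 0.30). Mir485 lay at 8.66 and 8.78 against 5.03 and 5.46, and Mir134 at 9.99 and 9.93 against 6.68 and 6.64. The differences of Mir323, Mir487b, Mir329 and Mir412 were -3.11 ± 0.24, -2.44 ± 0.13, -2.13 ± 0.32 and -1.98 ± 0.14. No Aged array reached a P3 array for any of these 7 genes. For 6 of the 7 only the P3 arrays lay above the array median. The 5 that did not pass (Mir540, Mir666, Mir667, Mir668, Mir409) had differences between -0.92 and -0.26. Of the 14 that fell, Mir673 was not called without Aged replicate 1 (adjusted p = 0.251) or 2 (0.169), nor with all 8 arrays (0.0735).

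Several regulators of fetal growth were lower as well. Of 15 fetal RNA-binding proteins and growth regulators 8 fell and 1 rose. For 6 of the 15 only arrays of 1 group lay above the array median, so the filter favoured a difference among them. Dusp9, Lin28a and Lin28b were low in both groups and did not pass the filter. Over all 18 on the array the mean level was 7.80 and 7.83 in P3 and 7.10 and 7.05 in Aged. Igf2bp3 and Igf2bp1, which bind Igf2 mRNA, differed by -2.93 ± 0.21 and -1.68 ± 0.14. Sox11, a transcription factor of developing tissues, lay at 10.42 and 9.75 in P3 and at 5.29 and 5.37 in Aged. Igf1 fell by 1.55 ± 0.24 and its receptor Igf1r by 1.07 ± 0.19. The receptor Fgfr4, typical of myoblasts and fetal muscle, fell by 1.29 ± 0.19. The member that rose was Arid3b (0.82 ± 0.17). Without Aged replicate 1 the calls of Igf1r (adjusted p = 0.159) and Arid3b (0.108) were lost, and without Aged replicate 2 that of Igf1r (0.129). The list then held 5 falls in either case. It also held 5 with all 8 arrays, without Igf1 (adjusted p = 0.219) and Fgfr4 (0.0677), and Arid3b (0.168) was then not called.

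Genes of dividing cells were lower in Aged. Of 23 cell cycle genes 17 fell and 1 rose, with a median of -1.08. Mki67, a marker of proliferation, lay at 8.38 and 7.85 in P3 and at 5.08 and 5.02 in Aged, a difference of -3.07 ± 0.22 (limma adjusted p = 0.00147). Cyclin A2 (Ccna2) fell by 2.73 ± 0.28, topoisomerase 2α (Top2a) by 2.14 ± 0.19, Cdk1 by 1.72 ± 0.19 and cyclin E1 (Ccne1) by 1.58 ± 0.17. For 10 of the 23 only arrays of 1 group lay above the array median, so the filter favoured a difference among them. Over all 29 on the array, tested or not, the mean level was 7.16 and 6.94 in P3 and 5.97 and 5.93 in Aged. The member that rose was Pcna, the sliding clamp of DNA replication and repair, at 10.68 and 9.96 in P3 and at 11.71 and 11.56 in Aged (1.32 ± 0.27). The call of Pcna was lost without Aged replicate 1 (adjusted p = 0.0712) and in the fit of all 8 arrays (0.0536), where the falls numbered 10. In RNA of whole fibers, fewer dividing cells among them and less RNA per cell cannot be told apart.

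Inhibitors of the cell cycle and targets of p53 did not move as a group, with 2 of 20 higher, 3 lower and a median of 0.03. Eda2r, the ectodysplasin A2 receptor and a target of p53, lay at 8.52 and 8.27 in P3 and at 10.13 and 9.89 in Aged (1.61 ± 0.21). Gadd45g rose by 1.24 ± 0.25. Apart from the imprinted Cdkn1c, Sesn2 fell by 1.24 ± 0.19 and Perp by 1.05 ± 0.17. Cdkn1a had no probe set of its own. Without Aged replicate 1 the calls of Gadd45g (adjusted p = 0.165) and Sesn2 (0.0712) were lost, and without Aged replicate 2 that of Sesn2 (0.0835), which was also lost with all 8 arrays (0.0719). The number that rose was 6 without P3 replicate 1 and 4 without P3 replicate 2, and the number that fell was 6 without P3 replicate 2.

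Genes of myoblast fusion and myogenic regulation fell more often than they rose. Of 17 tested 6 fell and 2 rose, where 10.6% of all genes fell and 10.5% rose, so the rises were near the share over all genes. Mymk, myomaker, the membrane protein needed for fusion, lay at 10.59 and 10.72 in P3 and at 6.86 and 6.49 in Aged (-3.98 ± 0.22). Its partner Mymx did not pass, at 6.44 and 6.91 against 6.54 and 6.39. Among the myogenic transcription factors, Myf5 fell by 1.99 ± 0.28 and Myog by 0.94 ± 0.20, Myod1 did not pass (0.24 ± 0.17), and Myf6, the factor of mature fibers, rose by 1.17 ± 0.18. The adhesion molecule Jam3 fell by 1.46 ± 0.28, and Eya1, a co-activator of fast-fiber genes, rose by 1.31 ± 0.25. Pax7, the transcription factor of satellite cells, fell by 0.80 ± 0.22 at an adjusted p of 0.0497. The call of Pax7 was lost without Aged replicate 1 (0.21), Aged replicate 2 (0.127) or P3 replicate 2 (0.0625). Without Aged replicate 1 the calls of Myog (adjusted p = 0.247) and Myf6 (0.116) were lost, and without Aged replicate 2 those of Myog (0.2) and Eya1 (0.092). Either way 4 members were called lower and 1 higher. All 8 arrays together called 2 lower and 1 higher, without Myog (adjusted p = 0.648), Myf6 (0.106), Jam3 (0.105) and Pax7 (0.183).

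Transcription factors of fiber type moved little as a group, with 3 of 24 higher and 2 lower. The thyroid hormone receptor Thrb lay at 5.16 and 4.57 in P3 and at 7.98 and 7.28 in Aged (2.76 ± 0.30). Maf, of a family linked to IIB myosin, rose by 1.27 ± 0.27 and Ppargc1a, the co-activator of mitochondrial genes, by 0.87 ± 0.18. Vgll3 and Prox1, which is linked to slow fibers, fell by 2.36 ± 0.44 and 1.85 ± 0.39. The calls of Maf (adjusted p = 0.123) and Ppargc1a (0.124) were lost without Aged replicate 1, and that of Ppargc1a without Aged replicate 2 (0.29) and with all 8 arrays (0.15). Without P3 replicate 2 the list held 10 rises, and without P3 replicate 1 it held 6 falls.

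The basement membrane that surrounds each fiber and its receptors were mostly lower. Of 20 genes 16 fell and none rose, with a median of -1.38. The laminin chain Lamb1 lay at 8.51 and 8.92 in P3 and at 6.32 and 6.74 in Aged (-2.19 ± 0.25). Nidogen-2 (Nid2) fell by 1.99 ± 0.28, and the fibronectin receptor subunit Itga5 by 2.08 ± 0.28. The collagens Col15a1 and Col6a1 differed by -1.96 and -1.24, and melusin (Itgb1bp2), which binds integrins, by -1.40 ± 0.19. The number that fell was 9 without Aged replicate 1 and 3 in the fit of all 8 arrays, where Lamb1 (adjusted p = 0.0799), Col15a1 (0.0641) and Col6a1 (0.347) were not called. Of 12 dystrophin complex genes 4 fell and 1 rose. The syntrophin Sntb1 lay at 11.35 and 10.52 in P3 and at 7.27 and 7.81 in Aged (-3.39 ± 0.34), and utrophin (Utrn), the relative of dystrophin found all along fetal fibers, at 9.47 and 9.29 against 6.96 and 7.61. Sarcospan (Sspn) fell by 1.56 ± 0.20, while dystrophin itself (Dmd) did not pass (0.05). The rise of the synthase Nos1 (1.02 ± 0.25) was not called without Aged replicate 1 (adjusted p = 0.199) or 2 (0.172). Without P3 replicate 2 the dystrophin complex held 7 falls, and with all 8 arrays it held 2, without Utrn (adjusted p = 0.15), and no rise (Nos1, 0.0956).

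Markers of other cell types moved beside these matrix genes. Of 11 fibroblast markers 7 fell and none rose, with a median of -1.70. Over all 12 on the array their mean level was 8.23 and 8.55 in P3 and 6.85 and 7.42 in Aged. Col3a1 differed by -1.97 ± 0.18, Col1a1 by -2.05 ± 0.38 and Postn by -3.35 ± 0.42. In the fit of all 8 arrays 1 fibroblast marker was called, and Col3a1 (adjusted p = 0.0818) and Col1a1 (0.362) were not. Dcn, an abundant fibroblast transcript, did not pass and its groups overlapped, at 10.38 and 10.71 against 10.59 and 11.48. Of 8 smooth muscle and pericyte markers 2 fell (Cspg4 and Acta2) and of 4 Schwann cell markers 2 fell (Pmp22 and Erbb3), both lists with none that rose. Of 7 tendon markers Tnc fell and Comp rose. Fmod, a collagen-binding proteoglycan, lay at 5.92 and 8.41 in P3 and at 8.85 and 9.89 in Aged and did not pass (2.21, adjusted p = 0.113), nor did the matrix protein Thbs4, at 9.38 and 9.28 against 10.01 and 11.29 (1.32, 0.0777). Without Aged replicate 1 both were called (0.00124 and 0.00363), and the tendon markers called higher then numbered 3, as they did with the replicate block. Of 10 endothelial markers none was called by limma, with 1 at an unadjusted p under 0.05. Among 3 macrophage markers tested, Cd68 rose by 2.39 ± 0.38, from 8.17 and 9.32 to 11.14 and 11.12, Mrc1 fell by 0.83 ± 0.17 and C1qb did not pass. The 2 lymphocyte, 1 adipocyte and 3 cartilage markers tested were not called, and no erythroid marker passed the filter. The other 9 macrophage markers, Ptprc and Adgre1 among them, did not pass the filter on low values in these arrays. The call of Mrc1 was lost without Aged replicate 1 (adjusted p = 0.158). Lost with all 8 arrays were the calls of Mrc1 (adjusted p = 0.3), Cd68 (0.177), Comp (0.596), Acta2 (0.245) and Pmp22 (0.0687). Which part of the lower matrix genes belongs to the lower fibroblast markers was not tested.

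**Figure D3:**
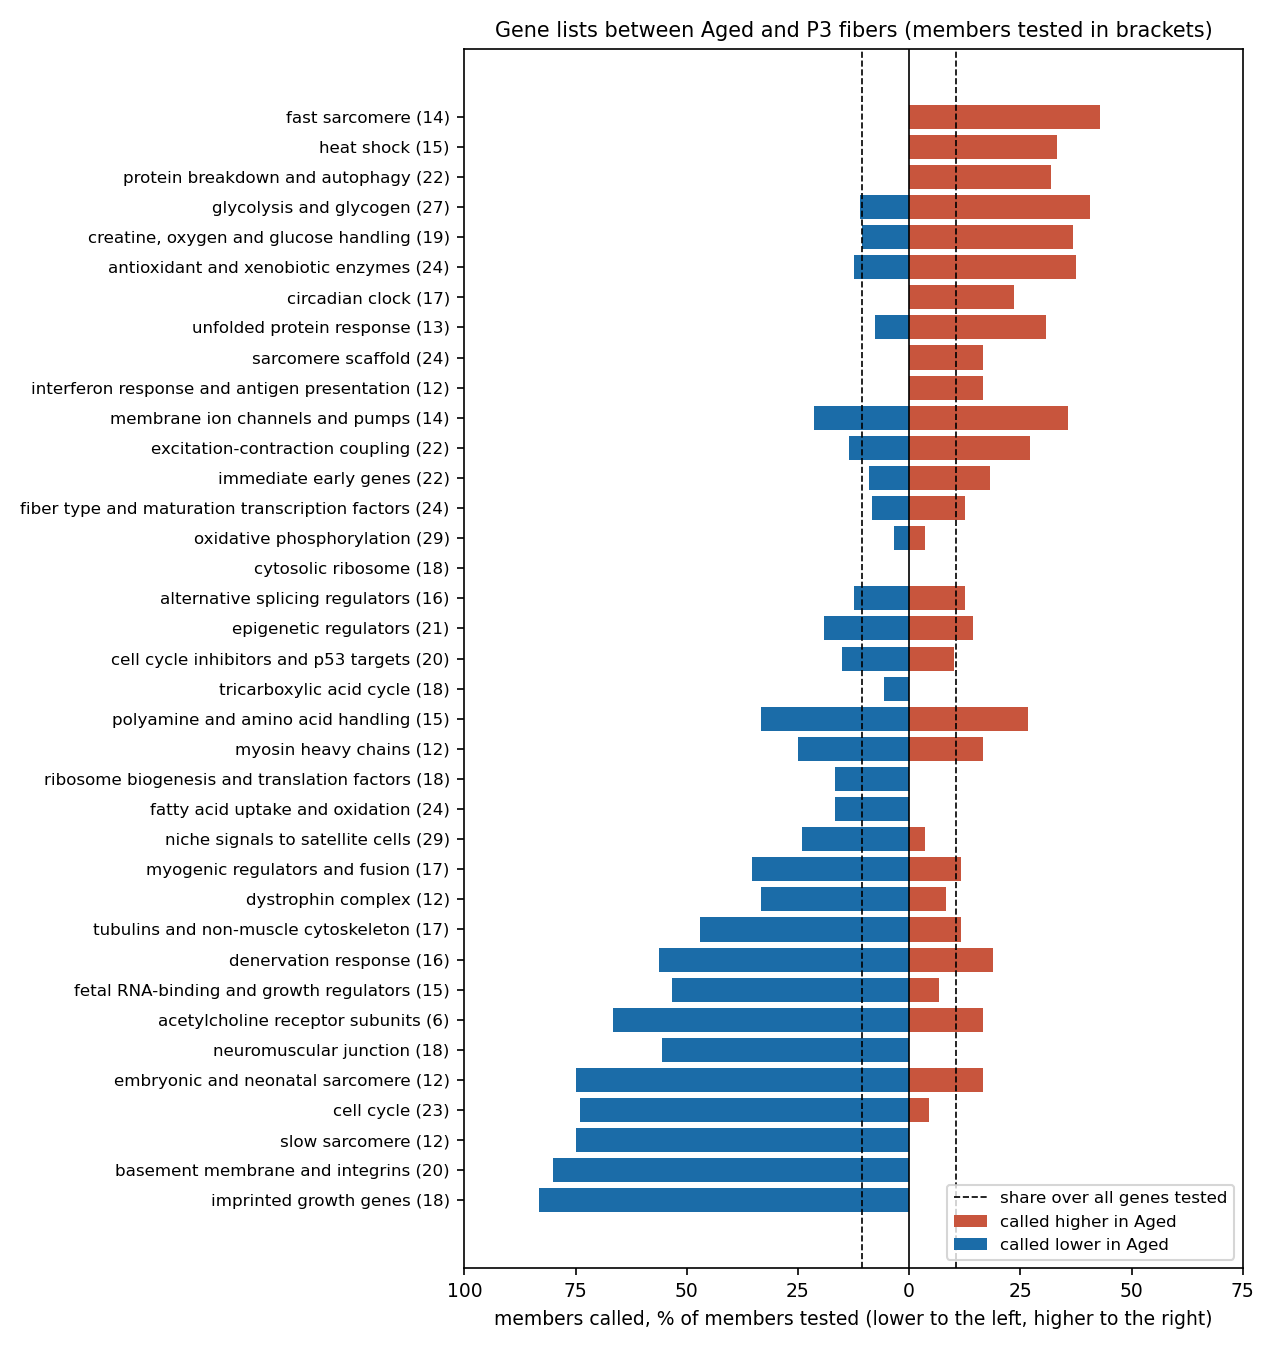
Share of the tested members of each gene list called lower (bars to the left) or higher (bars to the right) in Aged than in P3, in percent, with the number tested in brackets. The dashed lines mark the share of all genes tested that were called lower (10.6%) and higher (10.5%). The imprinted list (15 of 18 called lower) and the basement membrane list (16 of 20) reach furthest to the left, and the fast sarcomere list (6 of 14 called higher) furthest to the right.

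Genes of glycolysis and glycogen metabolism, the main fuel path of fast fibers, were higher in Aged in part. Of 27 genes 11 rose, 3 fell and 13 did not pass, with a median of 0.44. Pfkfb3, which makes the activator of phosphofructokinase, lay at 7.27 and 7.41 in P3 and at 9.99 and 9.78 in Aged (2.55 ± 0.20). Phosphorylase kinase, which switches on glycogen breakdown, rose in its α, β and γ subunit genes: Phka1 lay at 9.81 and 9.73 against 12.13 and 12.13, while Phkb rose by 1.67 ± 0.23 and Phkg1 by 1.53 ± 0.18. Hexokinase 2 (Hk2) rose by 1.34 ± 0.18, muscle phosphofructokinase (Pfkm) by 0.91 ± 0.14, glycogen synthase (Gys1) by 1.36 ± 0.23 and the glycogen-targeting phosphatase subunit Ppp1r3c by 1.71 ± 0.32. Muscle phosphorylase (Pygm) rose by 0.58 ± 0.12 and pyruvate kinase (Pkm) by 0.55 ± 0.13. The 3 that fell were Fbp2, an enzyme of glycogen resynthesis (-1.47 ± 0.21), the platelet-type phosphofructokinase Pfkp (-1.07 ± 0.23) and the brain-type phosphorylase Pygb (-0.70 ± 0.17). The rises numbered 7 without Aged replicate 1, 6 without Aged replicate 2 and 17 without P3 replicate 1. Without Aged replicate 2 the calls of Pfkm, Gys1, Pygm, Pkm and Pygb were lost (adjusted p = 0.0655 to 0.21), and without Aged replicate 1 those of Pfkm, Pygm, Pkm, Pygb and Pfkp (0.0773 to 0.393). Pygb was also lost without P3 replicate 2 (0.0601), where the rises numbered 16. With all 8 arrays no fall was called by limma, as Fbp2 (adjusted p = 0.0997), Pfkp (0.132) and Pygb (0.555) did not pass, nor did the rises of Hk2 (0.0564), Ppp1r3c (0.0646) and Pkm (0.177).

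Gatm and Gamt, the enzymes that make creatine, both fell. Gatm lay at 12.63 and 12.39 in P3 and at 7.23 and 7.45 in Aged, 36-fold lower, and Gamt at 11.59 and 12.12 against 9.33 and 9.40 (-2.49 ± 0.23). The creatine transporter Slc6a8 lay at 10.72 and 10.83 against 11.45 and 11.40 (0.65 ± 0.17), and mitochondrial creatine kinase, Ckmt2, at 10.37 and 10.61 against 12.15 and 12.46 (1.82 ± 0.20). Of the 19 genes of creatine, oxygen and glucose handling 7 rose and 2 fell. Myoglobin (Mb) lay at 11.28 and 11.85 in P3 and at 13.13 and 13.43 in Aged, the AMP deaminase Ampd3 rose by 1.88 ± 0.19, and the glucose transporter Slc2a4 by 0.89 ± 0.21. The calls of Slc6a8 and Slc2a4 were lost without Aged replicate 1 (adjusted p = 0.45 and 0.191) or 2 (0.369 and 0.252), and 4 members were called higher in either case. With all 8 arrays 3 were called higher, without Slc6a8 (adjusted p = 0.372), Ampd3 (0.148) and Slc2a4 (0.0595). Slc6a8 was also lost with the replicate block (0.0727), and its Adult minus P7 difference was -0.23.

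Oxidative metabolism showed few changes. Of 29 oxidative phosphorylation genes 1 rose (Sdhb, 0.73 ± 0.18) and 1 fell (Cox8a, -1.57 ± 0.23), and of 18 tricarboxylic acid cycle genes 1 fell (Idh2, -1.10 ± 0.23). Their medians were 0.10 and 0.17. Of 24 genes of fatty acid uptake and oxidation 4 fell and none rose, with a median of -0.31. Cpt1a, the liver-type enzyme that admits fatty acids to mitochondria, lay at 9.26 and 8.92 in P3 and at 7.32 and 7.41 in Aged, and the oxidation enzymes Acadl, Hadh and Acaa2 fell by 0.95 ± 0.18, 0.74 ± 0.16 and 0.60 ± 0.16. Of these 4, Cpt1a alone was called without Aged replicate 1 and without Aged replicate 2. The calls of Acaa2 (adjusted p = 0.186) and Sdhb (0.0934) were lost with all 8 arrays. Sdhb was lost without either Aged array too (0.317 and 0.229), and Idh2 without Aged replicate 1 (0.185). Without P3 replicate 2 the oxidative phosphorylation list held 10 rises, and without P3 replicate 1 the tricarboxylic acid list held 6.

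Amino acid genes divided by pathway. Of 15 genes of polyamine and amino acid handling 4 rose and 5 fell. Those that rose were glutamine synthetase (Glul, 1.55 ± 0.17), spermine oxidase (Smox, 1.52 ± 0.19) and the branched-chain amino acid enzymes Bcat2 (1.91 ± 0.27) and Bckdha (1.28 ± 0.26). Those that fell were the transporters Slc7a5 (-1.72 ± 0.22) and Slc7a1 (-1.31 ± 0.24) and the enzymes of serine and asparagine synthesis Psat1 (-1.86 ± 0.36), Phgdh (-1.23 ± 0.25) and Asns (-2.05 ± 0.41). Asns varied between replicates, at 12.01 and 11.13 in P3 and 9.07 and 9.97 in Aged, without overlap. The calls of Bckdha and Slc7a1 were lost without Aged replicate 1 (adjusted p = 0.0539 and 0.138) and those of Bckdha and Phgdh without Aged replicate 2 (0.0963 and 0.0758). The number of falls was 8 without P3 replicate 2 and 2 with all 8 arrays, where Bckdha (adjusted p = 0.063), Psat1 (0.309), Phgdh (0.0628) and Asns (0.0808) were not called. Of 18 cytosolic ribosome genes none was called by limma, with 0 at an unadjusted p under 0.05 and 6 called lower without P3 replicate 1. Of 18 ribosome biogenesis and translation factors 3 fell, with the elongation factor Eef1a1, the form that adult muscle replaces, at 13.73 and 13.54 in P3 and 11.77 and 12.15 in Aged. The falls numbered 1 without Aged replicate 2 and with all 8 arrays, 5 without P3 replicate 1 and 7 without P3 replicate 2, and 4 rises were called without P3 replicate 1.

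The cytoskeleton of growing cells was lower in Aged. Of 17 tubulins and other cytoskeleton genes 8 fell and 2 rose, with a median of -1.17. The thymosin Tmsb10, which holds actin monomers, lay at 9.17 and 10.30 in P3 and at 6.94 and 7.39 in Aged, and vimentin (Vim), an intermediate filament of young fibers and other cells, at 13.07 and 12.79 against 11.20 and 11.96. Tuba8, a tubulin of mature muscle, lay at 9.31 and 9.45 against 11.74 and 11.40 and was the larger of the 2 rises. The falls numbered 5 with all 8 arrays, without Vim (adjusted p = 0.258), and 1 rise was called, as without either Aged array. Of 29 signals that reach satellite cells from their surroundings 7 fell and 1 rose. The falls included Postn, also listed among the fibroblast markers, and which cells made these transcripts was not tested. Rspo3, which strengthens Wnt signals, lay at 8.17 and 8.24 in P3 and at 5.76 and 5.82 in Aged, and fibronectin (Fn1) fell by 2.32 ± 0.46. The falls numbered 10 without P3 replicate 2 and 2 with all 8 arrays, where Fn1 was not called (adjusted p = 0.276). Of 21 epigenetic regulators 4 fell and 3 rose. Tet1 and Tet2, which oxidise methylated DNA bases, fell by 2.15 ± 0.29 and 2.20 ± 0.36, and the remodelling ATPase Smarca2 rose by 1.47 ± 0.19. Of 16 splicing regulators 2 rose and 2 fell, and none of these 4 was called without Aged replicate 1, without Aged replicate 2 or with all 8 arrays. Without P3 replicate 2 the splicing list held 4 rises and 5 falls. Without either Aged array 1 epigenetic regulator was called higher, without P3 replicate 1 there were 5 and without P3 replicate 2 there were 6. The epigenetic falls numbered 2 without Aged replicate 1 and 7 without P3 replicate 2. With all 8 arrays no epigenetic regulator was called higher by limma (Smarca2, adjusted p = 0.0942) and 2 were called lower.

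Of 22 genes of protein breakdown and autophagy 7 rose and none fell, with a median of 0.51. Ubiquitin ligases of muscle had the largest rises. Fbxo40 lay at 9.11 and 9.81 in P3 and at 12.57 and 12.25 in Aged (2.95 ± 0.28), Fbxo32 (atrogin-1) at 8.55 and 9.65 against 11.58 and 11.26 (2.32 ± 0.38) and Trim63 (MuRF1) at 10.41 and 9.99 against 12.52 and 12.25 (2.18 ± 0.22). In Adult replicates 1 and 2 Fbxo40 lay at 11.40 and 12.32, Fbxo32 at 10.98 and 11.58 and Trim63 at 10.53 and 12.29. Foxo1, the transcription factor that acts on atrophy genes, rose by 0.82 ± 0.19. Of the autophagy genes, Gabarapl1 rose by 1.55 ± 0.39, Bnip3 by 1.19 ± 0.19 and Sqstm1 by 0.46 ± 0.12. Foxo1, Bnip3 and Sqstm1 lost their calls without Aged replicate 1 (adjusted p = 0.0852 to 0.446) and without Aged replicate 2 (0.0947 to 0.358). The count was 4 without Aged replicate 1, 5 without Aged replicate 2, 12 without P3 replicate 1 and 13 without P3 replicate 2. It was 3 with all 8 arrays, and Trim63 (adjusted p = 0.0615), Gabarapl1 (0.139), Foxo1 (0.141) and Sqstm1 (0.436) were not called.

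Chaperones and stress genes were higher in part. Of 15 heat shock genes 5 rose and none fell. The small heat shock protein genes Hspb6 and Hspb8, abundant in muscle, rose by 1.34 ± 0.18 and 1.08 ± 0.19. The inducible Hspa1a lay at 8.11 and 10.15 in P3 and at 12.69 and 12.26 in Aged (3.35 ± 0.64) and was the most uneven of these genes between the P3 arrays. In the Adult arrays Hspa1a lay at 12.93 and 12.78, above both Aged arrays. Hsph1 and Dnaja1 rose by 0.80 ± 0.19 and 0.97 ± 0.24, and lost their calls without Aged replicate 1 (adjusted p = 0.413 and 0.307) or 2 (0.249 and 0.125). The count was 3 without either Aged array, 9 without P3 replicate 1 and 8 without P3 replicate 2. It was 2 with all 8 arrays, without Hspb8 (adjusted p = 0.294), Hsph1 (0.0897) and Dnaja1 (0.0659). Of 22 immediate early genes, which respond to handling within minutes to hours, 4 rose and 2 fell. Dusp1 lay at 11.03 and 10.44 in P3 and at 13.13 and 12.50 in Aged (2.08 ± 0.29). In the unfolded protein response 4 of 13 rose and 1 fell, and of 12 interferon and antigen presentation genes 2 rose, Ifit3 (2.35 ± 0.35) and H2-Q4 (1.19 ± 0.29). The number of immediate early genes that rose was 2 without either Aged array or with all 8 arrays and 10 without P3 replicate 2. The number that fell was 0 by limma without Aged replicate 1, 1 without Aged replicate 2 and 5 without P3 replicate 1. The unfolded protein response held 2 rises without Aged replicate 1 or with all 8 arrays and 1 without Aged replicate 2. Neither Ifit3 (adjusted p = 0.0629) nor H2-Q4 (0.0938) was called with all 8 arrays, and without Aged replicate 1 the interferon list held 4 rises. H2-Q4 lost its call without Aged replicate 2 (adjusted p = 0.0634), P3 replicate 1 (0.0601) or P3 replicate 2 (0.079).

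Of 17 clock genes 4 rose and none fell. Arntl, the activator of the clock, lay at 8.39 and 8.69 in P3 and at 10.26 and 9.97 in Aged (1.58 ± 0.22). The repressors Nr1d1, Bhlhe41 and Bhlhe40 rose by 1.51 ± 0.18, 2.13 ± 0.33 and 1.08 ± 0.20. The Per genes, which mark the phase of the day, did not pass, with differences between -0.25 and 0.18. The time of day at which muscles were taken is not given in the labels. Bhlhe40 lost its call without Aged replicate 1 (adjusted p = 0.125) or 2 (0.141), and 7 clock genes were called higher without P3 replicate 2. The fit of all 8 arrays called 2, without Arntl (adjusted p = 0.29) and Bhlhe40 (0.0784), and the Adult minus P7 difference of Arntl was -0.03.

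Enzymes that clear aldehydes, esters and oxidants held some of the largest rises. Of 24 antioxidant and xenobiotic genes 9 rose and 3 fell, with a median of 0.37. Aldh1a1, which oxidises retinaldehyde and other aldehydes, lay at 5.35 and 4.95 in P3 and at 10.99 and 11.20 in Aged. The carboxylesterase Ces1d lay at 4.76 and 4.51 against 8.72 and 8.84, the carbonyl reductase Cbr2 at 4.93 and 5.07 against 8.92 and 8.72 and the quinone reductase Nqo1 at 6.79 and 6.73 against 9.32 and 8.95. For Aldh1a1, Ces1d and Cbr2 the P3 arrays lay below the array median, where no background level is known, so no fold is given. The glutathione transferase Gstm1 rose by 2.48 ± 0.26. The 3 that fell were Sod3, the extracellular superoxide dismutase (-1.19 ± 0.18), metallothionein Mt1 (-0.63 ± 0.15) and the monooxygenase Fmo1, at 8.74 and 8.87 in P3 and 6.94 and 7.68 in Aged. Without Aged replicate 1 the calls of Fmo1 (adjusted p = 0.0972) and Mt1 (0.126) were lost and the rises numbered 6. Without Aged replicate 2 the call of Mt1 was lost (0.344) and the rises numbered 5. With all 8 arrays 4 rises and no fall were called by limma, without Nqo1 (adjusted p = 0.11), Sod3 (0.334), Mt1 (0.341) and Fmo1 (0.528).

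**Figure D4:**
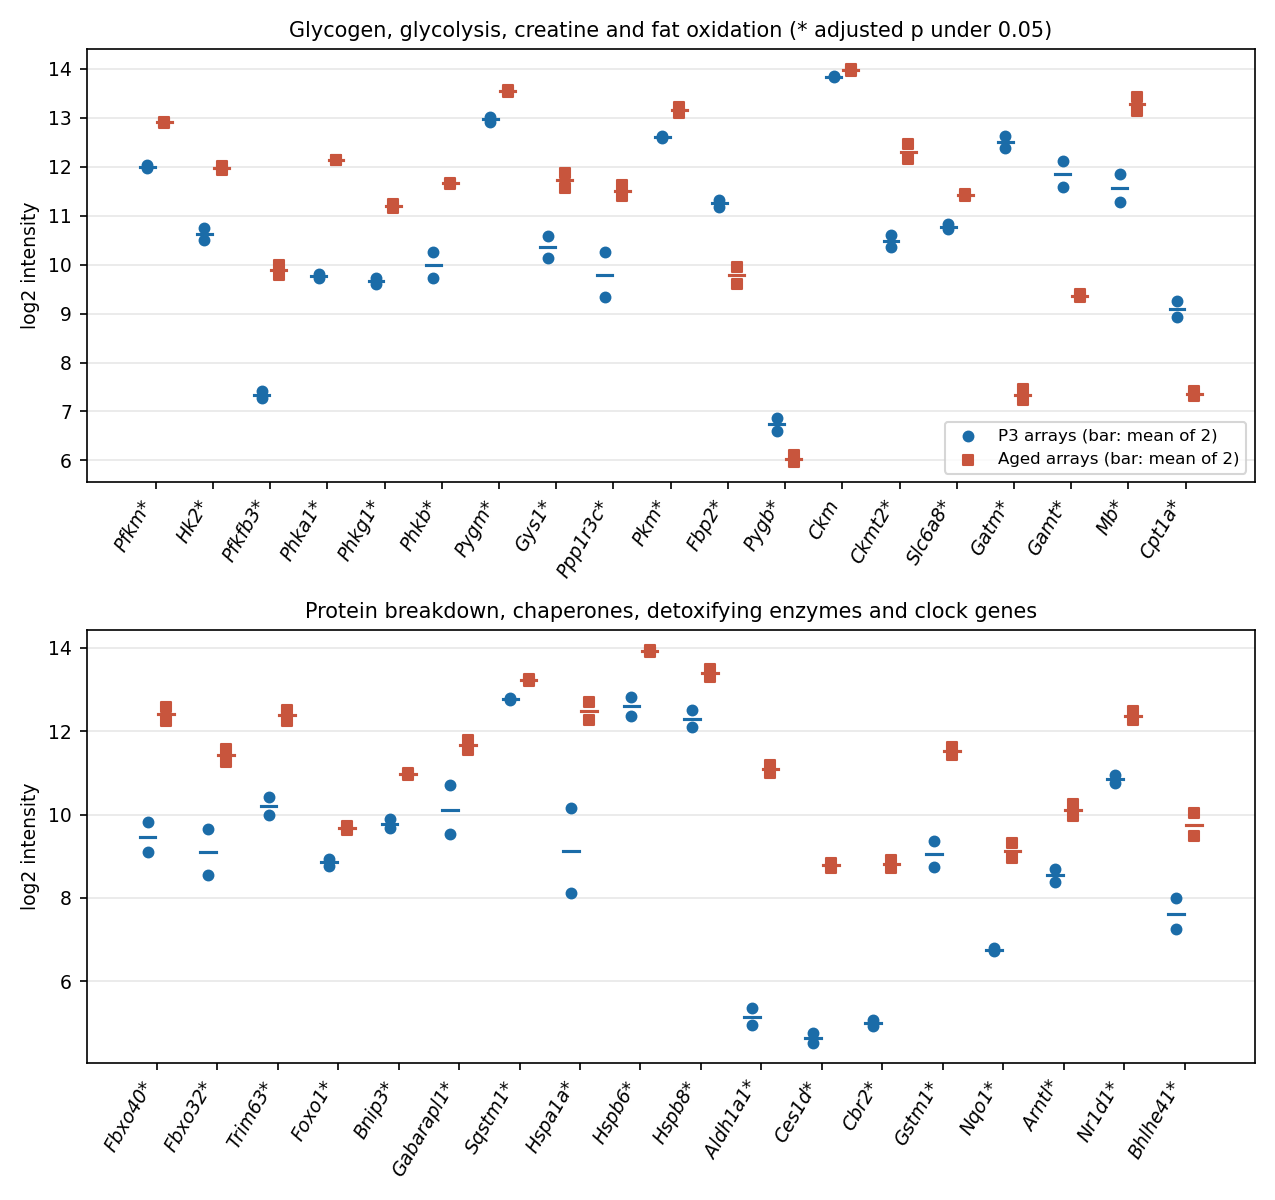
Log2 intensity of genes of glycogen, glycolysis, creatine and fat metabolism (upper panel) and of protein breakdown, chaperones, detoxifying enzymes and the clock (lower panel) in the 2 P3 arrays (circles) and the 2 Aged arrays (squares), with bars at group means. All genes but Ckm passed (asterisk). Gatm and Gamt lie far lower in Aged, while Aldh1a1, Ces1d and Cbr2 lie lowest of their panel in P3.

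Over all genes the 15 largest rises and the 15 largest falls among named genes extended these groups. Beside Aldh1a1, Ces1d, Cbr2 and Ankrd1, the rises held the matrix protease Mmp3 (from 4.69 and 4.92 to 8.97 and 9.53), Fgfbp1, which releases fibroblast growth factors from the matrix (from 4.68 and 4.99 to 9.10 and 9.39), and the sulfide-oxidising enzyme Sqor (from 5.07 and 5.72 to 9.39 and 9.48). The phospholipid transporter Abcb4 lay at 6.98 and 7.12 in P3 and at 10.96 and 10.91 in Aged (3.88 ± 0.19), the glutathione transferase Gstk1 at 7.89 and 7.79 against 11.50 and 11.68, and Dkk3, of the Dickkopf family, at 6.13 and 6.32 against 9.77 and 9.86. Tmem140, Tspan8, Tlcd4, the lysosomal galactosidase Gla and the amylase Amy1 rose by 3.55 to 4.01. Tmem140 was the most uneven of the 15 in P3, at 5.85 and 7.26, but both Aged arrays lay above 10. For 8 of the 15 genes both P3 arrays lay below the array median. None of the 30 genes lost its call when any of the 4 arrays was left out.

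Among the falls beside those described, the kinase Nrk lay at 10.55 and 10.80 in P3 and at 4.10 and 4.40 in Aged (-6.42 ± 0.21). Fndc3c1 lay at 10.80 and 10.48 against 4.10 and 4.95, the potassium channel accessory subunit Kcne1l at 11.27 and 11.41 against 5.81 and 5.62 and Capn6, a calpain without protease activity, at 10.63 and 10.29 against 4.85 and 4.98. Tecrl, of the sarcoplasmic reticulum, lay at 9.61 and 8.48 in P3 and at 3.46 and 4.02 in Aged. The predicted transcript AW551984, which the rule for named genes leaves out, had the largest difference of all, from 12.37 and 11.66 to 4.49 and 5.16 (-7.19 ± 0.34). Nrk, Fndc3c1, Kcne1l, Capn6 and Atp1b4 are X-linked. Of 332 X-linked genes 64 fell (19.3%) and 42 rose (12.7%), against 10.3% and 10.5% of 11122 autosomal genes. By at least 3 units 13 X-linked and 47 autosomal genes fell. Of the sex-linked transcripts given above, the Y-linked Eif2s3y was lower in Aged, while Xist did not pass and its groups overlapped. The part of sex in the X-linked shares was not tested.

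The 4 arrays of the other ages, which were normalised together with the Aged and P3 arrays, allowed a related comparison, Adult against P7. It covers neither the step from P3 to P7 nor that from Adult to Aged, so it does not repeat Aged against P3. Adult against P7 called 64 genes, 9 higher (0.0785% of all genes tested) and 55 lower (0.48%), with a median SE of 0.37 against 0.21. Of these 64 genes 62 were called in the same direction between Aged and P3. Of the 1209 genes that rose in Aged, 89% had a positive Adult minus P7 difference, against 44.2% of all genes. Both Adult arrays lay above both P7 arrays for 56.7% of the 1209, where all genes gave 18.2%. Of the 1211 genes that fell, 94.1% had a negative difference, against 55.8% of all genes. Both Adult arrays lay below both P7 arrays for 68.5% of the 1211, where all genes gave 26.4%. The differences were smaller, with medians of 0.54 against 1.14 for the genes that rose and -0.94 against -1.28 for those that fell. The Adult arrays stood apart from each other: fibroblast markers had a mean level of 10.41 in Adult replicate 1 and 7.03 in replicate 2, and Eif2s3y lay at 3.67 and 8.83. Without Adult replicate 1, 86.5% of the genes that rose and 93.6% of those that fell lay beyond both P7 arrays in the same direction. Without Adult replicate 2 these shares were 62.2% and 72%. One array lies beyond 2 others more easily than 2 arrays do, and the share over all genes was not taken for these cases.

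**Figure D5:**
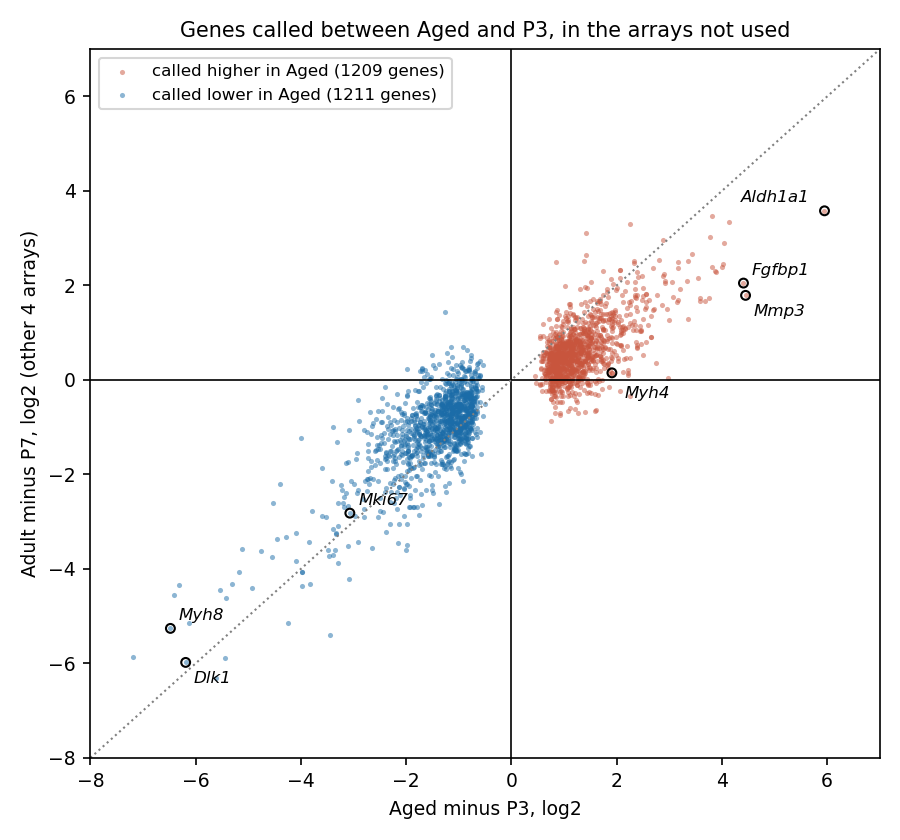
Each point is a gene called between Aged and P3 (1209 higher, 1211 lower), with its Aged minus P3 log2 difference on the horizontal axis and its Adult minus P7 log2 difference, from the 4 arrays not used, on the vertical axis. The dotted line marks equal differences. Most points share their sign on both axes, and Myh4 lies near 0 on the vertical axis.

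The size of the Adult minus P7 value varied by gene. Myh8 (-5.26), Dlk1 (-5.98), Igf2 (-4.62) and Mki67 (-2.82) differed between Adult and P7 by much of their Aged minus P3 value, as did Aldh1a1 (3.58). Myh4 differed by 1.91 between Aged and P3 and by 0.15 between Adult and P7, with P7 arrays at 13.52 and 13.18 and Adult arrays at 13.54 and 13.45. Pvalb (0.25) and Chrne (-0.05) were also near 0 between Adult and P7. A test of the difference between the 2 comparisons over all 8 arrays called no gene (0%), with 686 at an unadjusted limma p under 0.05 and a lowest adjusted p of 0.565. Angpt1 had the values 2.26 and -0.33 in the 2 comparisons, Sorl1 2.07 and -0.24, and Mettl21e -1.27 and 1.43. They are among the 10 genes with the smallest p for that difference and did not pass. Without Adult replicate 2 the test called 692 genes and without Adult replicate 1 it called 1, so the count rested on which Adult array was used.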

How the data were processed

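The 4 arrays compared, 2 per age, were whole-transcript gene arrays hybridised with RNA amplified from 1 ng, per the labels' protocols. The deposited intensities were made by the authors with RMA (background correction, quantile normalisation and probe set summary), per the submitters' processing notes, which give no version. The values run from 3.72 to 24410 on a linear scale, although RMA ends on the log2 scale, so a step back is likely but unstated, and log2 was taken of each. Quantile normalisation hides differences in total RNA. Of 34760 probe sets, 21640 named exactly 1 gene symbol, and 12525 of these lay above the array median in at least 2 of the 4 arrays. A gene with several (630 genes) was represented by the probe set with the highest mean. Precision is limited by the number of arrays.

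The resulting 11465 genes entered limma (version 3.58.1, R version 4.3.3; lmFit, eBayes with a mean-variance trend, 2 residual degrees of freedom, median prior 3.82), two-sided, with Benjamini-Hochberg adjustment over all genes and a threshold of 0.05. Adult against P7 was fitted on the other 4 arrays, and the difference between both comparisons on all 8. Alternatives covered filters, normalisations, priors, an offset of 32, the samples fitted, a replicate block, size thresholds and leaving out each array. Genes named are the 15 largest rises and falls without predicted genes and non-coding RNA series, fixed marker genes, for each list and direction the 6 or fewer members of lowest p, other members of a list, and the 10 with the smallest p for the difference. The members, lists and tests were chosen with earlier results of these data known, so list counts are descriptions, and the Dlk1 to Dio3 cluster was singled out after its values were seen. Some lists share members. Plots were drawn with matplotlib 3.10.9, and tables were made in Python 3.11.15 with NumPy 2.4.6 and pandas 2.3.3.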

Additional observations from a re-analysis of the deposited data

How the results depend on the processing

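With 2 arrays a group and unequal spread, counts of calls depended on single arrays and on the samples fitted. Leaving out each array in turn gave 1369 to 4024 genes called in all, 636 to 2105 higher and 733 to 1919 lower; both totals above the reported 2420 came from leaving out a P3 array, the group with the larger spread, and the lone array left in a group was then assumed to vary like the other group. The fit of all 8 arrays called 1065 (535 higher, 530 lower), a test against a log2 difference of 1 called 236 (97 and 139), and a size of at least 1 left 775 of the genes that rose. Other filters, normalisations, priors and the offset called 2166 to 2566, and the autosomal genes alone, added after the data were seen, 2292. Between Adult and P7, 1831 to 2269 of the 2420 genes kept their sign when each of those arrays was left out. The difference between both comparisons gave 0 to 692 calls, with 692 without Adult replicate 2 and 1 without Adult replicate 1. Of 264 named genes called, 131 kept the call in every setting but the 2 size rules and none reversed; 109 lost it in the fit of all 8 arrays, 73 without Aged replicate 1 and 69 without Aged replicate 2. Named genes that were not called and changed sign were Acta1 (0.06 with equal array medians, 0.03 with quantiles normalised again), Myl1 (0.04 with equal medians), Mylpf (0.04) and Xist (0.04). Leaving out single arrays moved Myh10 from -0.60 to 0.31, Myh13 from -1.01 to 0.15, Colq from -0.88 to 0.04, Myl1 from -0.25 to 0.10, Mylpf from -0.17 to 0.02 and Xist from -0.27 to 0.12. The cause was not tested. With the replicate number as a block 2948 genes were called (1441 higher, 1507 lower), which include 2377 of the 2420, and 8 named calls were lost. The labels do not pair the samples, and the deviations of same-numbered arrays correlated at 0.101 over 2 pairs. Dim genes near the array median are the least certain, since the table holds no background level.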
